A study of Sus scrofa with 12 samples.

Results

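FBXO32 and TRIM63 encode the ubiquitin ligase components known as atrogin-1 (MAFbx) and MuRF1, the genes most often measured as readouts of muscle wasting. They were described here in smooth muscle cells cultured from pig (Sus scrofa) coronary artery. They are 2 of the 21153 genes in the count table, and both were among the 12444 genes with enough counts to be tested. They were selected on earlier results of these libraries, FBXO32 on its lower level after PDGF-BB and TRIM63 on its lower level after S100A4, both against control. Those comparisons, and the interaction that holds them, are therefore given below as descriptions without a test.

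FBXO32 is an F-box protein, the subunit that brings substrates to an SCF complex built on the scaffold CUL1, the adaptor SKP1 and the RING protein RBX1. TRIM63 is itself a RING ligase of the tripartite motif family that binds the sarcomere. In skeletal and cardiac muscle both genes are known to be switched on by FOXO transcription factors, which AKT keeps out of the nucleus when insulin-like or other growth factors act on the cell, and by the glucocorticoid receptor with its target KLF15. TRIM63 is also known as a target of NF-kB.

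The cells were a primary culture labelled as differentiated and contractile, used between passages 6 and 11. Dishes of 35 mm were seeded at 60 cells/mm2 in medium containing 10% serum from fetal calves. Treatment began after 24 h and lasted 4 h, with PDGF-BB (platelet-derived growth factor, a smooth muscle mitogen) at 30 ng/ml, with S100A4 (a member of the calcium-binding S100 family) at 1 µg/ml, with both proteins at these doses, or with neither (control). Each of the 4 groups had 3 libraries numbered 1 to 3. The design text speaks of 3 animals, but no label ties a library to an animal, so each p-value rests on the spread among libraries, which may be technical. Fewer cells expressing a gene and less RNA per cell cannot be told apart in such bulk samples.

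Library totals lay between 21455021 and 32448438 counts, so 1 CPM (counts scaled to library size) stood for 21.5 to 32.4 counts. The libraries numbered 2 stood apart in every group: on the first principal component, with 49.9% of the variance, those 4 scored 41.1 to 59.9 and the other 8 scored −40.0 to −13.9. The 12 smooth muscle markers (ACTA2, MYH11, CNN1 and others) summed to between 14977 and 32443 CPM. ACTA2 was the largest part, with group means of 11924 to 13390 CPM. Among the 12, TAGLN was low at 83 to 213 counts per library, and MYOCD at 71 to 188 counts. Of 20 skeletal muscle markers 13 were in the table, and MYF5, MYF6, TNNI1 and TNNI2 had 0 counts in every library while MYOD1 and MYOG had at most 1 and 2. Endothelial markers (5 of 7 in the table) summed to 55.2 to 127 CPM in control and 120 to 201 CPM with PDGF-BB, mainly through ERG, while KDR had at most 4 counts. Their part in the results below was not tested.

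FBXO32 (ENSSSCG00000005981) lies on chromosome 4 at 15895875 to 15925929 and TRIM63 (ENSSSCG00000027684) on chromosome 6 at 83493200 to 83507471, both in the build Sscrofa11.1 as RefSeq annotates it. No other RefSeq gene overlapped either span. The nearest were WDYHV1, 54774 bp from FBXO32, and SLC30A2, 8323 bp from TRIM63. Because transcript lengths were not used here, the levels of both genes are compared across groups and not with each other.

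FBXO32 was high in control and S100A4 libraries and low in every library that had received PDGF-BB. Its normalised level was 277, 261 and 304 CPM in control replicates 1, 2 and 3. With PDGF-BB it was 68.3, 44.0 and 62.2 CPM. All 3 values with PDGF-BB lay below all 3 control values, and the mean of 58.2 ± 12.6 CPM (SD, n = 3) was 20.7% of the control mean of 281 ± 22.0 CPM (SD, n = 3). The fitted log2 difference was −2.27 ± 0.19 (SE), the 11th most negative of the 12444, with same-numbered libraries differing by −2.02, −2.56 and −2.29. This is the comparison that chose FBXO32. Among all tested genes, 13.5% were lower without overlap in it and 5.62% were called lower.

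FBXO32 was not called different with S100A4 alone. Its level was 295, 242 and 357 CPM, a mean of 298 ± 57.2 CPM (SD, n = 3), and these libraries lay on both sides of the control libraries. The log2 difference of 0.09 ± 0.18 (SE) did not pass the test (adjusted p = 1.00), with a 95% interval from −0.32 to 0.49. With the replicate number as a block the interval narrowed to −0.09 to 0.23. The value turned slightly negative, to −0.06, without S100A4 replicate 3, the highest library. In that comparison 0.563% of all tested genes were called. Its control libraries also served in the comparison that chose FBXO32.

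With both proteins FBXO32 was again low. Its level was 64.2, 55.1 and 71.9 CPM, a mean of 63.7 ± 8.41 CPM (SD, n = 3). Against S100A4 alone, a comparison that shares no library with the one that chose the gene, FBXO32 fell by 2.23 ± 0.19 on the log2 scale (SE; adjusted p = 0.00013, edgeR's quasi-likelihood test with Benjamini-Hochberg adjustment). All 3 same-numbered pairs were lower, by −2.20, −2.14 and −2.31, and the groups did not overlap. Of all tested genes 5.51% were called lower and 12.9% were lower without overlap, and FBXO32 ranked 11th from the most negative. Without replicate 1 of all groups the difference of −2.24 no longer passed (adjusted p = 0.052), and without replicate 2, the number that stood apart, it was −2.26 (adjusted p = 0.00038). The fit without replicate 1 was the 1 of 26 alternative settings that lost this call. It called 10 genes in this comparison, against 1862 with all libraries.

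Against control, which shares its libraries with the choosing comparison, FBXO32 fell with both proteins by 2.14 ± 0.19 on the log2 scale (SE; adjusted p = 6.9e-05). There, 8.75% of all tested genes were called lower and 15.8% were lower without overlap, as FBXO32 was. The combination and PDGF-BB alone overlapped and differed by 0.13 ± 0.18 (SE; adjusted p = 1.00; 95% interval −0.27 to 0.54), and the sign turned to −0.03 without PDGF-BB replicate 2. The PDGF-BB libraries there also served in the choice of FBXO32. In a comparison that shares the PDGF-BB libraries with the choosing one, S100A4 alone was above PDGF-BB alone by 2.36 ± 0.19 (SE; adjusted p = 0.00015), without overlap, where 4.67% of tested genes were called higher and 12.2% were higher without overlap. Without replicate 1 of all groups that difference had an adjusted p of 0.056, the 1 of 26 alternative settings in which its call was lost. The levels thus fell into an upper pair (S100A4 and control) and a lower pair (combination and PDGF-BB), and neither pair differed within itself beyond its spread. Replicate 2 was the lowest library of FBXO32 in each of the 4 groups. It also had the lowest sum of smooth muscle markers in each group. That sum was 18340 CPM in control, 15378 CPM with PDGF-BB, 15680 CPM with S100A4 and 14977 CPM with both. Its sums of fibroblast and of endothelial markers were the highest in each group. A link between these sums and FBXO32 was not tested.

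**Figure D1:**
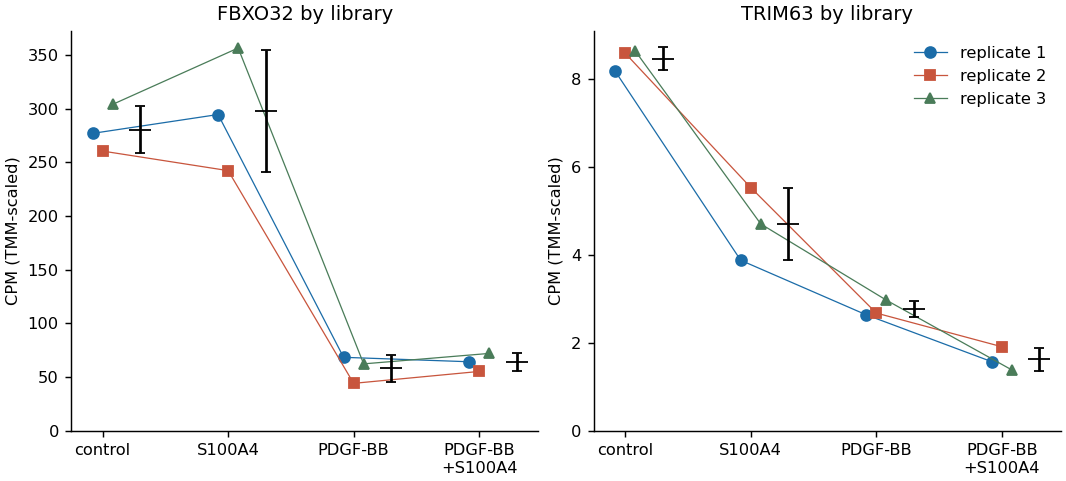
Normalised level (CPM, linear axis) of FBXO32 and of TRIM63 in each of the 12 libraries, by group, with thin lines joining libraries of the same replicate number and bars giving the mean ± SD of 3 libraries. FBXO32 sits at 242 to 357 CPM without PDGF-BB and at 44.0 to 71.9 CPM with it, while TRIM63 steps down from control through S100A4 and PDGF-BB to the combination.

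TRIM63 was lower with each protein and lowest with both. Its level was 8.17, 8.58 and 8.63 CPM in control replicates 1 to 3, from 183 to 253 counts. With PDGF-BB it was 2.63, 2.67 and 2.97 CPM. The PDGF-BB mean of 2.76 ± 0.182 CPM was 32.6% of the control mean of 8.46 ± 0.253 CPM (SD, n = 3 each), and the groups did not overlap (13.5% of all tested genes were lower without overlap and 5.62% were called lower). TRIM63 fell by 1.62 ± 0.16 on the log2 scale (SE; adjusted p = 0.00026, lower in 3 of 3 pairs), the 40th most negative difference of the 12444. The control libraries of this test also served in the comparison that chose TRIM63, so it is not independent of the choice. Leaving out any replicate number kept the call, with an adjusted p of 0.0457 without replicate 1 as the highest of those 3 values.

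S100A4 alone gave the comparison that chose TRIM63. Its level was 3.87, 5.53 and 4.70 CPM, all below the lowest control library, with a mean of 4.70 ± 0.827 CPM (SD, n = 3), or 55.5% of control. The log2 difference was −0.85 ± 0.16 (SE), and the same-numbered pairs differed by −1.06, −0.63 and −0.87. In this comparison 1 gene, LURAP1L, was called lower (0.00804% of all tested genes), and 4.04% were lower without overlap.

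With both proteins TRIM63 was at 1.57, 1.91 and 1.38 CPM, from 32 to 48 counts, a mean of 1.62 ± 0.267 CPM (SD, n = 3) and 19.1% of control. Each of these values lay below every library of the other 3 groups. Against control, again with libraries that served in the choice, TRIM63 fell by 2.38 ± 0.17 on the log2 scale (SE; adjusted p = 2.1e-05), the 17th most negative difference, where 8.75% of all tested genes were called lower and 15.8% were lower without overlap. Against S100A4 alone, whose libraries were the low side of the choice, it fell by 1.54 ± 0.17 (SE; adjusted p = 0.00041), where 5.51% were called lower and 12.9% were lower without overlap. Without replicate 1 of all groups the adjusted p was 0.053, the 1 of 25 alternative settings in which this call was lost.

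The step from PDGF-BB alone to the combination shares no library with the comparison that chose TRIM63. TRIM63 differed there by −0.77 ± 0.17 (SE; 95% interval −1.14 to −0.40), with same-numbered pairs at −0.72, −0.47 and −1.06 and no overlap. It did not pass with the groups alone (adjusted p = 0.16), where 0 of 12444 genes were called lower, 177 had an unadjusted p under 0.05 in that direction, and DESeq2 called 10. With the replicate number as a block the difference of −0.76 ± 0.16 (SE) passed (adjusted p = 0.0098), and 2.03% of all tested genes were called lower. Of all tested genes 2.84% were lower without overlap. In the blocked fit the call was lost without replicate 1 (adjusted p = 0.077) or replicate 3 (adjusted p = 0.22) and held without replicate 2 (−0.94, adjusted p = 0.0075).

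The order of TRIM63 levels was control, S100A4, PDGF-BB and the combination, and no neighbouring groups overlapped. S100A4, whose libraries also served in the choice of TRIM63, exceeded PDGF-BB by 0.77 ± 0.16 (SE; adjusted p = 0.014), where 4.67% of all tested genes were called higher and 12.2% were higher without overlap. That call was lost when only those groups were fitted (adjusted p = 0.078), without any 1 of the 3 replicate numbers (adjusted p = 0.167, 0.0527 and 0.151 for replicates 1, 2 and 3), and without PDGF-BB replicate 1. With the replicate block it held without each number in turn, with adjusted p of at most 0.0076, where 20.6% of all tested genes were called higher.

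The joint effect was compared with the product of the separate effects, which are additive on the log2 scale. For FBXO32, PDGF-BB at 20.7% of control times S100A4 at 106% gives 22.0%, and the combination was at 22.7%. For TRIM63, 32.6% times 55.5% gives 18.1%, and the combination was at 19.1%. The interaction, the S100A4 effect with PDGF-BB minus that without it, was 0.05 ± 0.26 for FBXO32 (SE; 95% interval −0.53 to 0.62) and 0.08 ± 0.23 for TRIM63 (SE; −0.44 to 0.60). Over all tested genes 0% were called for interaction with the groups alone (152 genes had an unadjusted p under 0.05, DESeq2 called 1 and limma-voom 0), and 0.113% with the block.

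**Figure D2:**
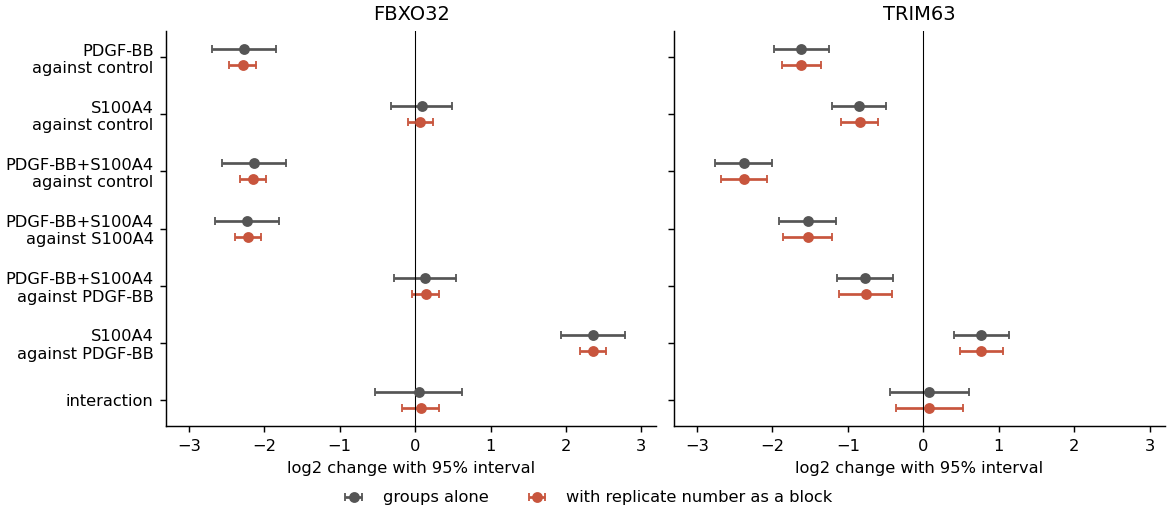
Log2 difference with its 95% interval for FBXO32 and TRIM63 in the 7 comparisons, from the fit of the groups alone and from the fit with the replicate number as a block. With the groups alone, both proteins against S100A4 stand at −2.23 for FBXO32 and both against PDGF-BB at −0.77 for TRIM63. All 7 comparisons are drawn alike, but those that chose the genes and the interactions are descriptions without a test.

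The balance between the genes was compared within libraries as the log2 ratio of FBXO32 to TRIM63, taken from their log2 CPM. This ratio was added after the values were seen and has no length correction. It was 4.91 to 5.13 in control and 5.44 to 6.22 with S100A4, a difference of 0.92. It was 4.00 to 4.66 with PDGF-BB and 4.80 to 5.63 with both, a difference of 0.90. The ratio was therefore higher in every library with S100A4 than in any library of its counterpart without it. It also moved with PDGF-BB, by −0.70 against control without overlap, and by −0.72 for both proteins against S100A4 with overlap. Both proteins against control differed by 0.20, with overlap. These differences are descriptions without a test. S100A4 against control rests on the values that chose TRIM63, and PDGF-BB against control on those that chose FBXO32. The other comparisons use libraries that served in the choice of FBXO32 or TRIM63.

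The genes around the ligases in the ubiquitin pathway, and those known to act on them, were read from 9 lists with 118 tested genes. The lists were chosen with earlier results of these data known, so a share above that of all tested genes is only a description. With PDGF-BB 11 rose and 15 fell, or 22.0% against 14.7% of all tested genes (9.09% higher and 5.62% lower). With S100A4 3 rose and 0 fell, or 2.54% against 0.563% (0.554% higher). With both proteins 14 rose and 19 fell, or 28.0% against 22% of all tested genes (13.2% higher and 8.75% lower). These counts move with the libraries: with PDGF-BB, 4 were called without replicate 1, 9 without replicate 3, 16 without control replicate 3 or without PDGF-BB replicate 1, 15 when only those groups were fitted, and 71 with the replicate block (48.8% of all tested genes, 24.3% higher and 24.5% lower). With S100A4, 0 were called without replicate 1, without replicate 3, without control replicate 3 or when only those groups were fitted, 1 without control replicate 1 or 2 or without S100A4 replicate 1 or 3, and 24 with the block (10.7% of all tested genes, 6.46% higher and 4.28% lower). With both proteins, 9 were called without replicate 1, 16 without replicate 3 and 72 with the block (56.1% of all tested genes, 27.5% higher and 28.6% lower). The counts of each list below, with the groups alone or with the block, are to be read beside these shares of all tested genes.

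The partners that build the SCF complex around FBXO32 did not pass with either protein alone in any of the 9 genes tested (with the block, 1 rose and 2 fell with PDGF-BB). Over all tested genes 14.7% were called with PDGF-BB and 0.563% with S100A4, so 0 of 9 is not far from those shares. SKP1, the adaptor, differed by −0.07 ± 0.11 with PDGF-BB, CUL1, the scaffold, by 0.03 ± 0.06, and RBX1, the RING protein, by −0.13 ± 0.08 (SE). With both proteins UBA3, a subunit of the NEDD8-activating enzyme that switches cullins on, fell by 0.24 ± 0.07 (SE; adjusted p = 0.023). There 8.75% of all tested genes were called lower.

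Ubiquitin and the E1 and E2 enzymes that charge and carry it had 15 tested genes. With PDGF-BB 3 rose, CDC34 by 0.27 ± 0.05 (adjusted p = 0.0076), UBE2D3 by 0.24 and UBE2D2 by 0.26, and 0 fell. Over all tested genes 9.09% were called higher and 5.62% lower. With the replicate block 6 rose and 5 fell with PDGF-BB, among the latter UBE2B at −0.27 ± 0.08 (SE; adjusted p = 0.014), which with the groups alone stood at −0.27 ± 0.09 (adjusted p = 0.085). CDC34 is an E2 used by SCF ligases, and UBE2D enzymes serve many RING ligases. With S100A4 UBE2D1 rose by 0.55 ± 0.09 (adjusted p = 0.023), from 7.77, 7.83 and 6.79 CPM to 10.6, 11.3 and 10.9 CPM. With the block 2 rose and 0 fell with S100A4. UBE2D2 was named after its value was seen.

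TRIM63's closest relatives are TRIM54 (MuRF3) and TRIM55 (MuRF2). TRIM55 had at most 1 count in any library. TRIM54 was low, at 4 to 99 counts. Its mean was 0.554 CPM in control and 1.71 CPM with PDGF-BB, a log2 difference of 1.65 ± 0.88 that did not pass with the groups alone (adjusted p = 0.27) and passed with the block (adjusted p = 0.00038). Of the 5 tested relatives TRIM9, a ligase known from neurons, rose with PDGF-BB by 1.45 ± 0.35 (adjusted p = 0.021), from 3.90, 3.76 and 2.07 CPM to 12.3, 8.37 and 5.96 CPM. Over all tested genes 9.09% were called higher. With the block 2 rose and 1 fell with PDGF-BB and 1 fell with S100A4.

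Among 19 other ligases linked to atrophy, 2 rose and 3 fell with PDGF-BB and 0 passed with S100A4. Over all tested genes 9.09% were called higher and 5.62% lower with PDGF-BB, and 0.563% were called with S100A4. With the block 2 rose and 8 fell with PDGF-BB, and 3 rose and 2 fell with S100A4. MYLIP, a ligase for lipoprotein receptors, fell by 1.26 ± 0.15 (adjusted p = 6.5e-04), from 20.6, 19.5 and 15.8 CPM to 7.49, 8.93 and 6.93 CPM. FBXO21, another F-box protein, fell by 0.54 ± 0.11 (adjusted p = 0.0074), and SIAH1 fell by 0.62 (adjusted p = 0.047). CBLB, a ligase that acts on insulin receptor substrate signalling, rose by 0.88 ± 0.11 (adjusted p = 6.5e-04), and NEDD4L rose by 0.75 (adjusted p = 0.044). The muscle F-box gene FBXL22 went from 3.90, 2.61 and 6.98 CPM in control to 0.826, 0.397 and 0.948 CPM with both proteins, where it fell by 2.63 ± 0.56 (adjusted p = 0.0077), while with PDGF-BB alone it stood at −1.71 ± 0.53 (adjusted p = 0.058). SIAH1 and NEDD4L were named after their values were seen.

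The FOXO factors and the growth factor pathway that restrains them had 18 tested genes, of which 0 rose and 4 fell with PDGF-BB and 0 passed with S100A4. The shares of all tested genes were 9.09% higher and 5.62% lower with PDGF-BB, and 0.563% called with S100A4. With the block 2 rose and 9 fell with PDGF-BB, and 1 fell with S100A4. FOXO3 fell by 0.73 ± 0.16 (adjusted p = 0.011), from 55.8, 62.9 and 58.3 CPM to 30.2, 32.5 and 43.9 CPM. FOXO4 fell by 0.73 ± 0.17 (adjusted p = 0.019), and FOXO1, at −0.42 ± 0.15 (adjusted p = 0.086), passed only with the block (adjusted p = 0.00011). The insulin receptor INSR fell by 0.85 ± 0.14 (adjusted p = 0.0026) and the receptor IGF1R by 0.61 ± 0.15 (adjusted p = 0.022). These are transcript levels and say nothing of the location or phosphorylation of the proteins. The list's median was −0.21, against −0.02 over all tested genes.

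The glucocorticoid and KLF15 list had 8 tested genes, and 3 fell with PDGF-BB, where 5.62% of all tested genes were called lower. With the block 2 rose and 5 fell with PDGF-BB, and 5 rose with S100A4. KLF15 fell by 1.36 ± 0.23 (adjusted p = 0.0031), from 3.50, 2.58 and 4.53 CPM to 1.30, 1.60 and 1.23 CPM. KLF9 fell by 1.35 ± 0.17 (adjusted p = 9.6e-04) and CEBPD by 1.96 ± 0.40 (adjusted p = 0.0087). NR3C1, the glucocorticoid receptor, stood at −0.58 ± 0.19 (adjusted p = 0.069, and 3.3e-07 with the block). With S100A4 CEBPB rose by 0.82 ± 0.12 (adjusted p = 0.016), from 77.7, 59.9 and 70.2 CPM to 118, 111 and 137 CPM.

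Of 16 genes of the myostatin, activin and TWEAK pathways 2 rose and 1 fell with PDGF-BB, where 9.09% of all tested genes were called higher and 5.62% lower. With the block 6 rose and 5 fell with PDGF-BB, and 6 rose and 1 fell with S100A4. TNFRSF12A, the TWEAK receptor, rose by 1.03 ± 0.08 (adjusted p = 1.0e-04), from 291, 325 and 325 CPM to 639, 619 and 656 CPM. TGFBR1, a type I receptor, fell by 0.39 ± 0.06 (adjusted p = 0.0020). NFKB1, an NF-kB subunit gene, rose with each protein, by 1.09 ± 0.16 with S100A4 (adjusted p = 0.012) and by 0.62 ± 0.16 with PDGF-BB (adjusted p = 0.025). NFKB1 was also the 1 gene of the 118 called between the combination and PDGF-BB alone, at 1.00 ± 0.16 (adjusted p = 0.037), where 0.273% of all tested genes were called. That call was lost in most fits that left out a library (0 of 118 without replicate 1, without replicate 3, and without any 1 library of the PDGF-BB or combination groups), and 16 of 118 were called with the block (7.14% of all tested genes).

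Autophagy genes known to move with the ligases in wasting muscle had 19 tested members, of which 0 rose and 4 fell with PDGF-BB (1 and 10 with the block). Over all tested genes 9.09% were called higher and 5.62% lower (24.3% and 24.5% with the block). ULK1, the initiating kinase, fell by 1.01 ± 0.09 (adjusted p = 1.5e-04), from 113, 116 and 127 CPM to 54.9, 58.0 and 63.2 CPM. ATG14 fell by 0.86 ± 0.16 (adjusted p = 0.0061), the protease CTSL by 0.81 ± 0.16 (adjusted p = 0.0070) and the mitophagy receptor BNIP3L by 0.44 ± 0.10 (adjusted p = 0.014).

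Proteins reported as substrates of the ligases had 9 tested genes, of which 3 rose and 0 fell with PDGF-BB (4 and 0 with the block). The shares of all tested genes were 9.09% higher and 5.62% lower (24.3% and 24.5% with the block). CKM, muscle creatine kinase, rose by 1.50 ± 0.14 (adjusted p = 1.8e-04), from 4.59, 5.93 and 5.71 CPM to 14.5, 17.0 and 14.5 CPM. VIM rose by 0.27 ± 0.07 (adjusted p = 0.034). MYBPC3 had at most 1 count in each control library and 0.202, 0.391 and 0.161 CPM with PDGF-BB, so no fold is given. EIF3F, the translation factor known as an FBXO32 substrate, differed by 0.06 ± 0.05 (adjusted p = 0.54). Transcript levels do not show how much of a protein was degraded.

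**Figure D3:**
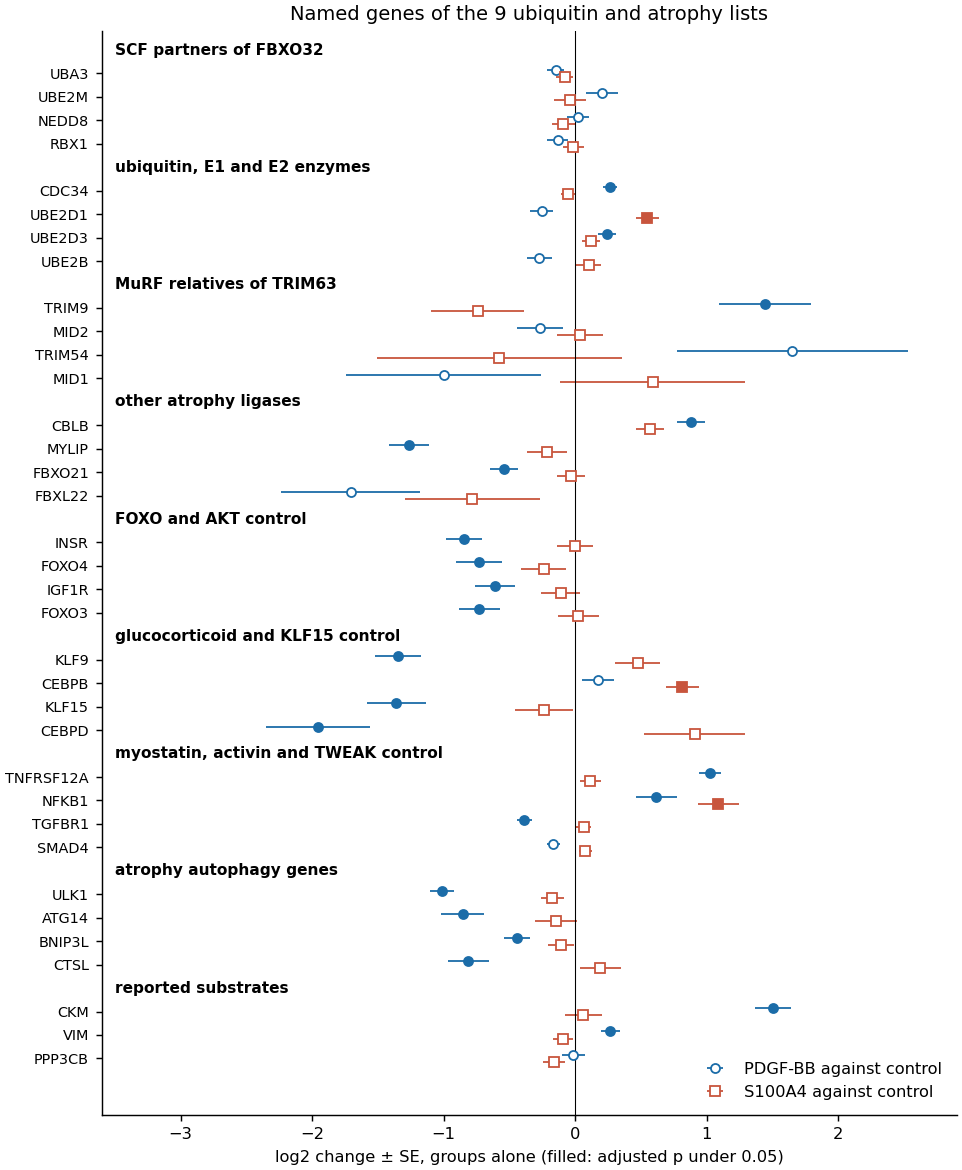
Log2 difference ± SE against control for named genes of the 9 lists, with PDGF-BB and with S100A4, filled where the adjusted p was under 0.05. KLF15, KLF9, CEBPD, MYLIP, ULK1 and FBXL22 (not filled) lie at −1.01 or below with PDGF-BB. TNFRSF12A, CKM, TRIM9 and TRIM54 (not filled) lie at 1.03 or above. The filled points with S100A4 are UBE2D1, CEBPB and NFKB1.

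The genes whose pattern was most like each ligase were taken by Pearson's r over the 12 libraries on log2 CPM, after centring on each replicate number, among 9417 genes with a symbol and a mean of at least 1 log2 CPM. These are descriptions, since all points share libraries and treatments. For FBXO32 they were TCP11L2 (r = 0.996), ADAMTS9 (0.996), TBC1D20 (0.994), TRANK1 (0.994) and HBP1 (0.994). TCP11L2 averaged 24.4 CPM in control, 9.67 CPM with PDGF-BB, 26.2 CPM with S100A4 and 9.94 CPM with both, the same upper and lower pairs as FBXO32. For TRIM63 they were NUDT18 (0.986), FGD4 (0.983), ALDH18A1 (0.983), CORO2B (0.983) and ITM2B (0.982). The r of ITM2B was 0.214 without centring. The log2 difference of ITM2B with PDGF-BB was −0.17 ± 0.24 (SE) with the groups alone, and its libraries overlapped in every comparison of groups. With the replicate block it was −0.17 ± 0.04 (SE), and the same-numbered pairs differed by −0.18, −0.16 and −0.16. CORO2B averaged 74.6, 42.0, 53.9 and 36.6 CPM in control, PDGF-BB, S100A4 and both, the order of TRIM63. FBXO32 and TRIM63 had r = 0.854 with each other, which placed TRIM63 1378th among the genes most like FBXO32. Without centring 1 of the 5 names stayed for each, TCP11L2 and FGD4.

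**Figure D4:**
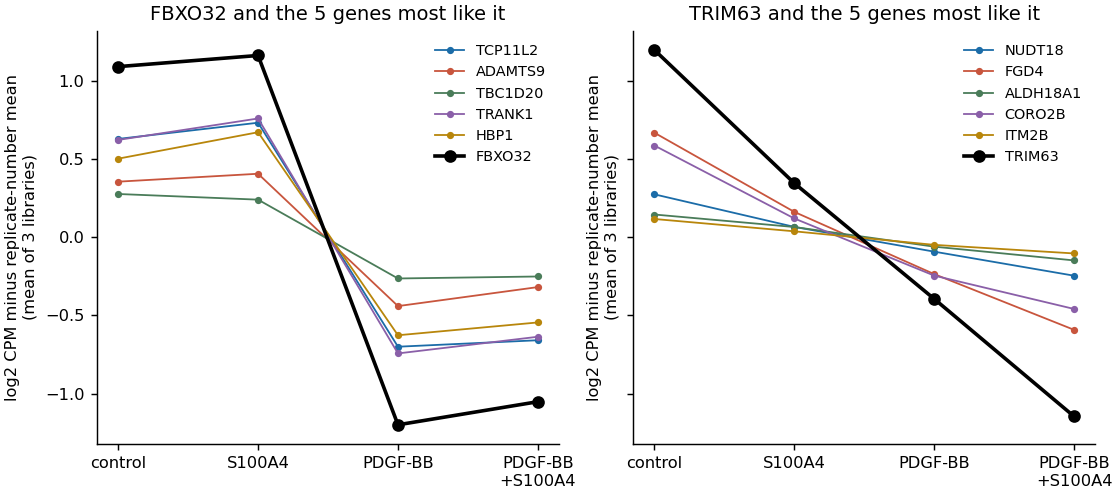
Mean replicate-centred log2 CPM in each group for FBXO32 and for TRIM63, each with the 5 genes most like it. The FBXO32 set has a high level in control and S100A4 and a low level in both groups with PDGF-BB. The group means of the TRIM63 set step down from control through S100A4 and PDGF-BB to the combination, by little in ITM2B, whose libraries overlapped between groups.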

How the data were processed

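The authors deposited raw, unnormalized counts of single-end 100 nt reads for each gene. Per the submitters' processing notes, the authors worked on the build Sscrofa11.1 with STAR 2.4, featureCounts 1.4.6 and CASAVA 1.8.2. Tool settings, strandedness and the handling of multimapping reads were not stated in the sources used here, so counts of near-identical or antisense genes are uncertain. Gene symbols were found for 14572 of 21153 identifiers, and 0 sample columns were left unmapped.

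Genes were kept by filterByExpr (minimum count of 10) of edgeR 4.0.16 in R 4.3.3, and libraries were scaled by TMM. The quasi-likelihood tests came from a single fit with 4 group means over the 12 libraries, two-sided, with Benjamini-Hochberg adjustment over 12444 genes and a threshold of 0.05. All adjusted p-values come from it unless another fit is named. Log2 CPM used a prior count of 2. The script was checked on simulated counts. Alternatives were DESeq2 1.42.0, voom of limma 3.58.1, RLE and upper-quartile scaling, no filter, a stricter filter, the compared groups alone, left-out libraries and the replicate number as a block.

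Deviations from group means correlated at 0.746 to 0.908 across groups for libraries of the same number (18 pairs), and between −0.676 and 0.136 for unlike numbers (36 pairs). On that ground libraries were paired by number in the same-numbered differences, the fit with the block and the centring, which the labels do not state. The main fit with the groups alone did not use the pairing, so its spread includes the differences between replicate numbers. The biological coefficient of variation was 27.2% with the groups alone and 5.14% with the block. No replicate repeated another (chi-square per gene at least 22.0).

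The members and the 9 pathway and 6 marker lists were chosen with earlier results of these data known. Of each list the text names up to 4 tested genes with the smallest adjusted p, not all of which it prints. It also names genes named after their values were seen, where it says so, and some that were always looked at, such as FOXO1, NR3C1, SKP1, CUL1, RBX1, TRIM54, TRIM55 and EIF3F.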

Additional observations from a re-analysis of the deposited data

Results flagged for a closer look

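NEDD4L, a HECT ubiquitin ligase among the atrophy-linked ligases, differed in its S100A4 effect with and without PDGF-BB when the replicate number was a block: the interaction was −0.77 ± 0.12 (log2, SE; adjusted p = 0.028, edgeR's quasi-likelihood test). Its mean level was 12.8 ± 3.2 CPM in control, 21.6 ± 3.94 with PDGF-BB, 22.6 ± 5.86 with S100A4 and 22.1 ± 1.86 with both (SD, n = 3 each). With the groups alone the interaction was −0.79 ± 0.31 (SE; adjusted p = 1.00). It was the 1 gene called among the 118 of the pathway lists, where 0.113% of all tested genes were called in that fit.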

How the results depend on the processing

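Of 255 values of the 10 tested comparisons of FBXO32 and TRIM63 under alternative settings, 240 kept their direction and their side of the threshold. Only FBXO32 for both proteins against S100A4 and TRIM63 for both against PDGF-BB shared no library with the choosing comparison. The count is therefore largely not independent of the choice. The choosing comparisons ranged from −2.43 to −2.10 for FBXO32 and from −0.97 to −0.72 for TRIM63. The interactions ranged from −0.12 to 0.20 for FBXO32 and from −0.06 to 0.23 for TRIM63. FBXO32 under S100A4 against control ranged from −0.06 to 0.22 on leaving out libraries and turned negative without replicate 3 (−0.0022; −0.012 in the replicate block) and without S100A4 replicate 3 (−0.063). FBXO32 ranged from −2.36 to −2.08 for both proteins against S100A4, from −0.03 (−0.034, without PDGF-BB replicate 2) to 0.26 for both against PDGF-BB and from 2.19 to 2.50 for S100A4 against PDGF-BB. TRIM63 ranged from −1.67 to −1.42 for both proteins against S100A4, from −0.94 to −0.60 for both against PDGF-BB and from 0.60 to 0.90 for S100A4 against PDGF-BB. TRIM63 for both against PDGF-BB passed with DESeq2 (−0.77, adjusted p = 0.042) and with the replicate block (−0.76), and for S100A4 against PDGF-BB it was 0.77 with only those groups. The block changed no other call among the tested comparisons of these genes. TRIM63 has no value under the stricter filter, since its mean lay below 5 CPM.

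Genes called with PDGF-BB numbered 1830 with the groups alone, 6075 with the block, 1060 with the compared groups alone and 131 without replicate 1. The corresponding counts were 70, 1336, 28 and 1 with S100A4, 1862, 5948, 998 and 10 for both proteins against S100A4, 34, 888, 9 and 1 for both against PDGF-BB, and 1382, 5367, 576 and 5 for S100A4 against PDGF-BB. With both proteins against control they were 2732, 6982, 1911 and 502. DESeq2 called 205 genes with S100A4 and 123 for both against PDGF-BB. Upper-quartile scaling moved the share of higher calls with PDGF-BB from 61.8% to 49.0%, with both proteins from 60.1% to 46.1% and for both against S100A4 from 63.2% to 49.9%. The causes were not tested. TRIM63 rested on as few as 32 counts, where counting error is largest.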

Other observations

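The marker lists were read the same way, with the groups alone first. There 9.09% of all tested genes were called higher and 5.62% lower with PDGF-BB. The shares were 0.554% and 0.00804% with S100A4, and 13.2% and 8.75% with both. Of 12 smooth muscle markers 1 fell with PDGF-BB, SMTN by 0.69 ± 0.14 (SE; adjusted p = 0.010), and 3 fell with both proteins. With the replicate block 1 rose and 7 fell with PDGF-BB, 6 fell with S100A4, and 1 rose and 6 fell with both. In the blocked fit 24.3% of all tested genes were called higher and 24.5% lower with PDGF-BB. The blocked shares were 6.46% and 4.28% with S100A4, and 27.5% and 28.6% with both. Of 7 fibroblast markers 0 passed with PDGF-BB or S100A4, and TCF21 rose with both by 1.46 ± 0.30 (SE; adjusted p = 0.0060). With the block 2 rose and 3 fell with PDGF-BB, and 3 rose and 1 fell with S100A4. Fibroblast markers summed to 1021 to 1704 CPM. ERG was the 1 of 4 tested endothelial markers that rose with PDGF-BB, by 1.23 ± 0.30 (SE; adjusted p = 0.022), while PECAM1 stood at 0.22 ± 0.91 and CDH5 at 0.03 ± 0.37. CKM was the 1 of 5 tested skeletal muscle markers that rose with PDGF-BB (2 with the block), and that list summed to 9.22 to 68.6 CPM in control and 19.8 to 75.6 CPM with PDGF-BB. Of 3 tested cardiomyocyte markers MYBPC3 was called higher from at most 1 control count per library with PDGF-BB (2 higher and 1 lower with the block), and the list summed to 5.57 to 34.7 CPM. Of 3 tested macrophage markers 0 passed with the groups alone and CD14 was lower with PDGF-BB with the block (−0.37 ± 0.10, SE; adjusted p = 0.0073), the list summed to 7.51 to 11.9 CPM, and PTPRC had 0 counts in every library. These sums were not tested against the ligase levels.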
